A study of Mus musculus with 13 samples.

Results

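The ciliary axoneme genes described here are the genes whose mouse symbols begin with Dnah, Dnai, Cfap, Tekt or Rsph. They were looked up by gene identifier in a count table of bulk RNA sequencing from perivascular adipose tissue, the fat around blood vessels. The table held 62 such genes among 34013, of which 33302 had a symbol. They comprised 31 Cfap genes, 16 Dnah genes, 2 Dnai genes (Dnaic1 and Dnaic2), 8 Rsph genes and 5 Tekt genes. One Dnah symbol, Dnah2os, is an antisense RNA at Dnah2 and not a dynein. The gene family was picked for study with its levels in these libraries known, so its levels by library are given as a description, without a test.

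The 13 libraries came from C57BL/6 mice that had received splenocytes, the white cells of the spleen. The NTS-R group (3 libraries) received splenocytes of Nlrp3 knockout mice with type 2 diabetes (T2DM), and NS-R (3 libraries) those of Nlrp3 KO mice. The TS-R group (4 libraries) received splenocytes of T2DM mice, and WTS-R (3 libraries) those of WT mice. The labels give NTS-R and NS-R the genotype Nlrp3 KO and TS-R and WTS-R the genotype WT, without saying whether this is the donor or the recipient. They name neither the diabetes model nor the age, sex, transfer dose or time of collection, and do not say whether samples of a group are different animals. The p-values below therefore cover only the spread among these samples, which may be technical. NS-R and TS-R each held female and male libraries by their transcripts (below), so neither group came from a single animal.

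Libraries held 14216706 to 37011122 counts. Nlrp3, which encodes an inflammasome sensor, was low in every group, at 0.684 ± 0.467 CPM (counts scaled to the library total, without length correction) in NTS-R, 0.947 ± 0.456 CPM in NS-R libraries, 1.65 ± 1.31 CPM in TS-R libraries and 0.507 ± 0.248 CPM in WTS-R libraries (SD, n = 3, 3, 4 and 3). Xist and Y-linked transcripts marked NS-R replicate 3 and TS-R replicate 3 as female and the other 11 libraries as male. Several libraries stood apart from their own group. NS-R replicates 1 and 2 held airway transcripts such as the club cell secretoglobin Scgb1a1 (2324 and 4629 CPM, against at most 0.24 CPM elsewhere). TS-R replicate 3 held the most lymphoid transcripts, and TS-R replicate 1 the most skeletal muscle transcripts, with summed marker levels of 2846 and 12961 CPM. In the other libraries the lymphoid sum ran from 7.66 CPM (NTS-R replicate 2) to 453.5 CPM (TS-R replicate 2). The muscle sum ran there from 13.4 CPM (WTS-R replicate 2) to 2017 CPM (NTS-R replicate 2), and it also differed within groups. The adipocyte hormone gene Adipoq was present in all 13 libraries, at 438 to 1813 CPM.

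An axoneme is the microtubule skeleton of a cilium or flagellum. In motile cilia, dynein arms made of heavy chains (Dnah genes) and intermediate chains (Dnai genes) sit on the doublet microtubules and slide them against each other. Radial spokes (Rsph genes) pass signals from the central pair to the arms, and tektins (Tekt genes) are filaments inside the doublets. The Cfap genes, named for cilia and flagella associated proteins, encode central pair, inner doublet, docking and assembly proteins. Motile cilia are carried by multiciliated cells of the airway, the brain ventricles and the oviduct and by sperm as flagella, while fat cells have at most a primary cilium that does not beat. The transcription factor FOXJ1 and the RFX factors switch on motile cilium genes, and RFX proteins bind a DNA element called the X-box.

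Promoter sequences are shown for the members with a full X-box match, since this is the element through which axoneme genes are known to be controlled together. RefSeq promoter windows (GRCm38.p6, 250 bases before to 50 bases after the gene start) were matched by symbol for 50 of the 62 members. The X-box was searched on both strands as the half-sites GTTNCC and GNAAC with any 3 bases between them and occurred in 5 of the 50 members (10%), against 0.936% of 27025 genes with a window. The match is in capitals in each line, which runs 5′ to 3′ along the gene's own strand.
Cfap44 (chr16:44394549-44394848, plus strand): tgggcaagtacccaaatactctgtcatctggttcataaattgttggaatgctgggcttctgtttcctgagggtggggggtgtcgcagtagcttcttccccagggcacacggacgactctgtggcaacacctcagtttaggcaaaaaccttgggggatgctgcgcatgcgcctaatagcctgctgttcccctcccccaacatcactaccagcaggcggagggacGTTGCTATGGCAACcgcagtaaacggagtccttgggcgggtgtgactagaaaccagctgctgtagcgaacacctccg
Cfap45 (chr1:172520880-172521179, plus strand): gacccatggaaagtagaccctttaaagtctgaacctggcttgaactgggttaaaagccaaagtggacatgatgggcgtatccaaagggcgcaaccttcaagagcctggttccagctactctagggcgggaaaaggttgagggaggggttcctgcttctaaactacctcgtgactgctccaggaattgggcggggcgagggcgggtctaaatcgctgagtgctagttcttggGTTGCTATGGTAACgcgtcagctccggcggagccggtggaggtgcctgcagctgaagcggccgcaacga
Cfap61 (chr2:145934534-145934833, plus strand): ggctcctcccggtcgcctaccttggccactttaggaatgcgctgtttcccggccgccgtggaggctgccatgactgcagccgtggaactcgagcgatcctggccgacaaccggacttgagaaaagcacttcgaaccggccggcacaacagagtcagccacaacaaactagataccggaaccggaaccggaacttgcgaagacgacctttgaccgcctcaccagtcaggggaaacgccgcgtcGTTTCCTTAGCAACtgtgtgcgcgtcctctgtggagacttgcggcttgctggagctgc
Tekt4 (chr17:25471340-25471639, plus strand): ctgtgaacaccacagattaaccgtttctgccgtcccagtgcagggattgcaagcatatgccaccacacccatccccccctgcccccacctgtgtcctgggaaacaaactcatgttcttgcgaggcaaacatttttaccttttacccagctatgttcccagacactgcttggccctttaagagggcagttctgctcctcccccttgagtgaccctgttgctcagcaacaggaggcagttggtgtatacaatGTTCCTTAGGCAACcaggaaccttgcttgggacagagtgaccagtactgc
Cfap298 (chr16:90934800-90935099, minus strand): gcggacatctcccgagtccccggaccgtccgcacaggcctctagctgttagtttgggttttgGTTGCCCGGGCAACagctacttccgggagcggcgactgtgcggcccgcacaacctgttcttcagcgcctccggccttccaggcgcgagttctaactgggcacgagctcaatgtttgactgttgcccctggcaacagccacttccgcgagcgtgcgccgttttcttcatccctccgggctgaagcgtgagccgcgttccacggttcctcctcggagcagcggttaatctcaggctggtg
The element begins 27, 19 and 8 bases before the gene start in Cfap44, Cfap45 and Cfap61, at the start itself in Tekt4, and 188 bases before it in Cfap298. Cfap44, Cfap45 and Tekt4 matched on the reverse strand, Cfap61 on the forward strand, and the Cfap298 match, which reads the same on both strands, on each. A shorter match, GTTNCCATG, which shares its first letters with the X-box, occurred in 6 of 50 members (12%; Cfap161, Cfap20, Cfap52, Cfap74, Cfap97d2 and Dnah5) and in 2.22% of genes. The forkhead element TGTTTAC, the type of site bound by FOXJ1, occurred in 4 of 50 members (8.0%) and in 4.05% of genes. These matches are a description of the letters in the windows, not of binding.

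Detection of the members separated NS-R replicates 1 and 2 from every other library. A member counted as detected with 3 or more counts. By that rule 39, 35 and 35 of the 62 members were detected in NTS-R replicates 1 to 3, 60, 60 and 38 in NS-R, 43, 41, 43 and 39 in the TS-R libraries, and 36, 35 and 37 in the WTS-R libraries. The third NS-R library thus lay with the other groups. Depth was 37011122 counts in NS-R replicate 1 and 17546598 in replicate 2, which had as many members. With every library thinned to 14216706 counts, NS-R replicates held 58, 60 and 38 members and the other 10 libraries 34 to 40. At a threshold of 10 counts, NS-R held 58, 57 and 27 members, and the other libraries 22 to 35.

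**Figure D1:**
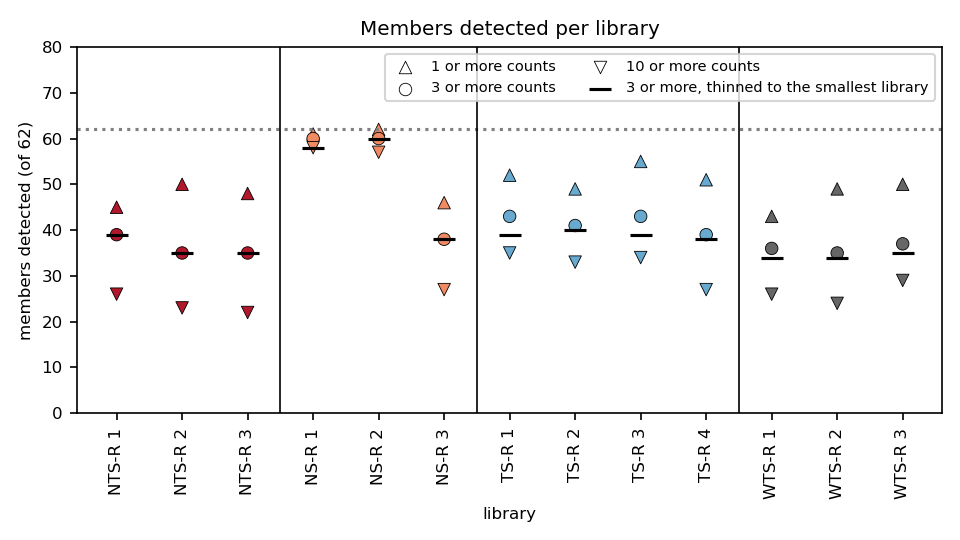
Number of the 62 members detected in each library (vertical axis) at 1, 3 or 10 or more counts, with libraries grouped by recipient group along the horizontal axis; the black bar is the 3-count number after thinning to 14216706 counts. At 3 or more counts NS-R replicates 1 and 2 have 60 members each, and the other 11 libraries 35 to 43.

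There were 29 members with 3 or more counts in all 13 libraries and 10 that reached 3 counts in NS-R replicates 1 and 2 alone. The 10 were Cfap206, Cfap44, Cfap57, Cfap58, Cfap65, Cfap97d2, Dnah5, Rsph14, Rsph4a and Tekt3. Rsph6a, a spoke head gene of sperm, never reached 3 counts, and its highest count was 2. Just inside the threshold were Cfap97d1 and Dnah2os, with a highest count of 5, and Tekt5, a tektin of sperm, with 6.

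The summed level of the 62 members was 136, 124 and 113 CPM in the NTS-R libraries, 412, 549 and 111 CPM in NS-R libraries, 146, 149.8, 161 and 128 CPM in TS-R libraries, and 127, 127 and 155 CPM in WTS-R libraries. NS-R replicates 1 and 2 were above every other library, also on library sizes rescaled by TMM, edgeR's correction for library composition. In plain CPM NS-R replicate 3 was below all of them, but on TMM scaling its sum of 127.8 CPM was above those of TS-R replicates 1 and 4, at 123.4 and 121.4 CPM. As group means the sums were 124 ± 11.2 CPM in NTS-R libraries, 357 ± 224 CPM in NS-R libraries, 146 ± 13.8 CPM in TS-R libraries and 136 ± 16.4 CPM in WTS-R libraries (SD, n = 3, 3, 4 and 3). The NS-R libraries did not share a level, and their mean lay near none of them.

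A set of members defined by under 3 counts in some library holds low values there by its definition. In the 33 members that did not reach 3 counts everywhere, the contrast was wider, and nothing is read from that width. Their summed level was 4.17, 3.52 and 3.66 CPM in NTS-R libraries, 141, 191 and 4.25 CPM in NS-R libraries, 5.47, 6.43, 5.66 and 4.63 CPM in TS-R libraries, and 3.24, 3.78 and 4.29 CPM in WTS-R libraries. Outside NS-R replicates 1 and 2, 5 members with counts in every library (Rsph3b, Cfap20, Rsph3a, Cfap97 and Cfap36) made up 56.4% to 71.2% of the sum. In NS-R replicates 1 and 2 the same 5 made up 21.6% and 22.2%.

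**Figure D2:**
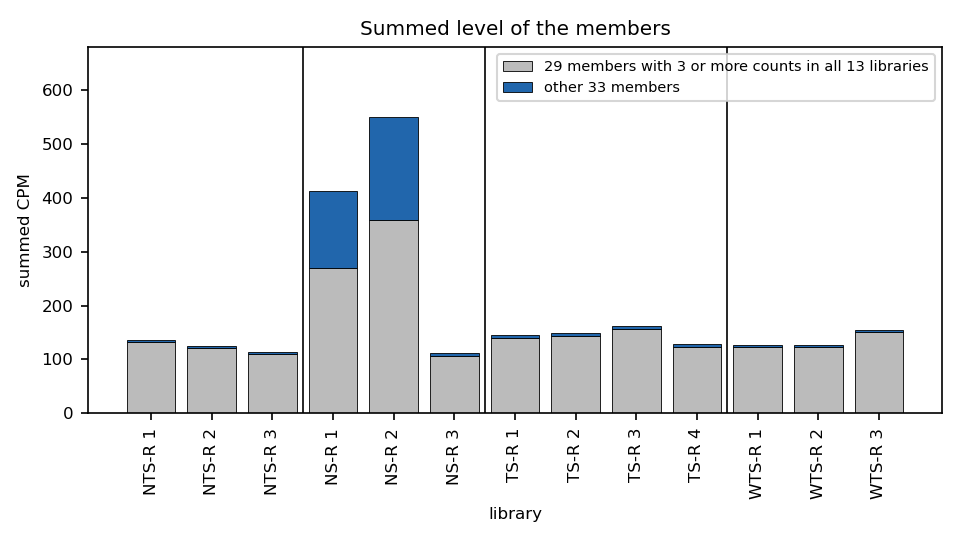
Summed CPM of the members in each library (vertical axis), split into the 29 members with 3 or more counts in all 13 libraries (grey) and the other 33 (blue). The blue part is 141 and 191 CPM in NS-R replicates 1 and 2 and at most 6.43 CPM in any other library. The blue set is defined by under 3 counts in some library, so low values are part of its definition.

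Single members followed the sum. Of the 61 members with 3 or more counts in any library, 49 were higher in both NS-R replicates 1 and 2 than in all 11 other libraries in CPM, as were 49 on TMM scaling, and 5.59% of 26079 genes detected by the same rule were. Since the members were picked with this pattern known, nothing further is read from that share. By kind, the pattern held for 27 of 31 Cfap genes, 9 of 10 inner arm heavy chains, 3 of 5 outer arm heavy chains, both intermediate chains, 4 of 8 radial spoke genes and 4 of 5 tektins, but not for Dnah2os. In 13 of the 49, the lower of NS-R replicates 1 and 2 was at least 10-fold above both the highest other library and the floor of 3 counts in the shallowest library (0.211 CPM). In 9 of the 49 it was under 2-fold above the highest other library, and these were Cfap126, Cfap157, Cfap300, Cfap36, Cfap54, Cfap74, Dnah7a, Rsph9 and Tekt2. In bulk tissue, more cells of a type and more RNA per cell cannot be told apart.

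**Figure D3:**
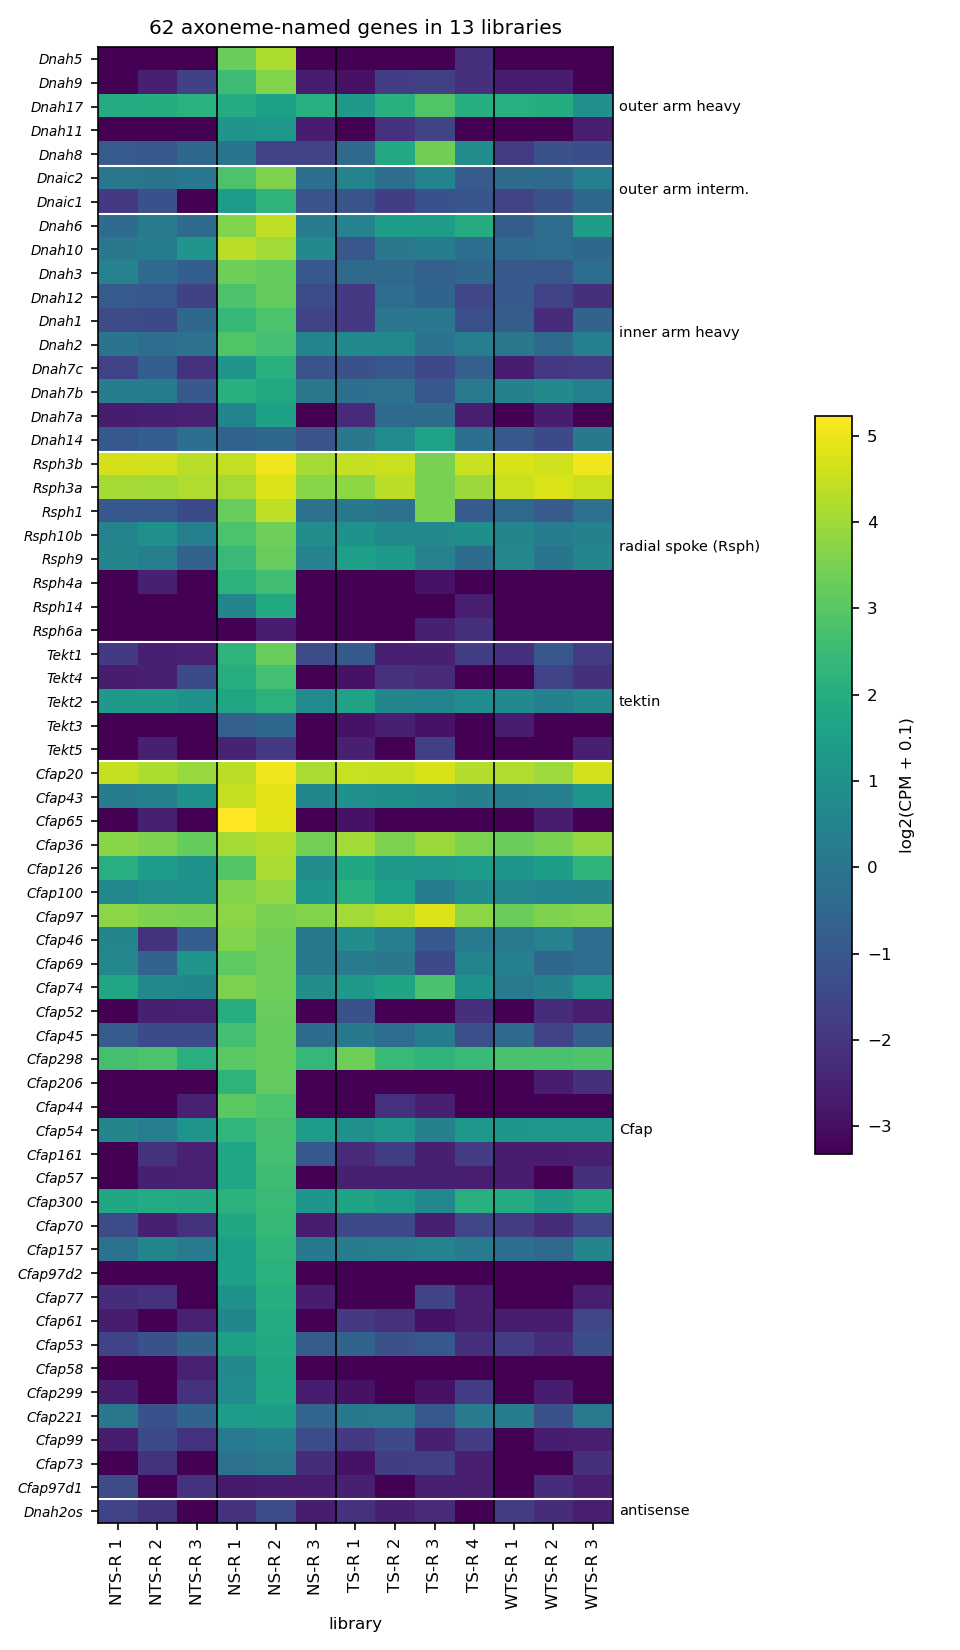
Level of each of the 62 members (rows, grouped by kind) in each of the 13 libraries (columns, grouped by recipient group), as log2(CPM + 0.1). NS-R replicates 1 and 2 are brighter than all other libraries in 49 rows. Outside these rows, Dnah8 and Cfap97 are brightest in TS-R replicate 3, and Rsph1 is bright there as well as in NS-R replicates 1 and 2.

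The outer arm drives ciliary beat frequency. Dnah5, a core heavy chain of airway cilia whose human counterpart is often mutated in primary ciliary dyskinesia, had 9.56, 17.8 and 0 CPM in NS-R libraries. It was at 0 counts in all NTS-R and WTS-R libraries and in TS-R replicates 1 to 3, and had 0.128 CPM in TS-R replicate 4, which is under the 3-count floor. NS-R replicates 1 and 2 were thus far above all others. Dnah9, the heavy chain that partners Dnah5, had 0, 0.0690 and 0.211 CPM in NTS-R libraries, 5.92, 12.2 and 0.0590 CPM in NS-R libraries, 0.0336, 0.203, 0.205 and 0.128 CPM in TS-R libraries, and 0.0601, 0.0565 and 0 CPM in WTS-R libraries. Dnah11, another heavy chain of the airway outer arm, had 2.08, 2.28 and 0.0590 CPM in NS-R libraries and at most 0.239 CPM elsewhere.

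The intermediate chains, which anchor the heavy chains to the doublet, split NS-R in the same way. Dnaic2 had 0.927, 0.897 and 0.985 CPM in NTS-R libraries, 7.08, 11.9 and 0.768 CPM in NS-R libraries, 1.31, 0.744, 1.36 and 0.450 CPM in TS-R libraries, and 0.721, 0.678 and 1.20 CPM in WTS-R libraries. Dnaic1 was at 2.57, 4.62 and 0.354 CPM in NS-R libraries and at most 0.630 CPM in the other groups. Dnaic2 was thus measured in all libraries at a low level and was several times higher in NS-R replicates 1 and 2.

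The outer arm chains of sperm, Dnah17 and Dnah8, were not highest in NS-R replicates 1 and 2. Dnah17 had 3.77, 3.8 and 4.29 CPM in NTS-R libraries, 3.70, 2.79 and 4.02 CPM in NS-R libraries, 2.32, 4.19, 7.37 and 3.92 CPM in TS-R libraries, and 4.09, 3.78 and 1.89 CPM in WTS-R libraries. The groups overlapped for Dnah17, and TS-R replicate 3 was the highest library. Dnah8 had 0.464, 0.414 and 0.633 CPM in NTS-R libraries, 0.892, 0.228 and 0.236 CPM in NS-R libraries, 0.671, 3.45, 10.3 and 1.73 CPM in TS-R libraries, and 0.180, 0.339 and 0.315 CPM in WTS-R libraries. All 4 TS-R libraries of Dnah8 lay above all WTS-R libraries, with replicate 3 the highest. They also lay above all NTS-R libraries in CPM, but on TMM scaling TS-R replicate 1 (0.568 CPM) was below NTS-R replicate 3 (0.725 CPM).

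Inner arm heavy chains set the shape of the ciliary bend, and 9 of the 10 were higher in both NS-R replicates 1 and 2 than elsewhere. Dnah10, a chain of the double-headed inner arm, had 0.985, 1.10 and 2.11 CPM in NTS-R libraries, 20.2, 16.4 and 1.54 CPM in NS-R libraries, 0.403, 0.947, 1.13 and 0.771 CPM in TS-R libraries, and 0.661, 0.734 and 0.630 CPM in WTS-R libraries. Its partner chain Dnah2 had 0.870, 0.759 and 0.844 CPM in NTS-R libraries, 7.38, 6.33 and 1.36 CPM in NS-R libraries, 1.61, 1.49, 0.853 and 1.16 CPM in TS-R libraries, and 0.961, 0.678 and 1.20 CPM in WTS-R libraries. Exons of Dnah2 and Dnah2os overlap on opposite strands in GENCODE M21, and without a stated strand setting their reads cannot be told apart.

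Dnah6, a single-headed inner arm chain, had 0.696, 1.04 and 0.703 CPM in NTS-R libraries, 12, 21.3 and 1.12 CPM in NS-R libraries, 1.28, 2.64, 2.49 and 3.85 CPM in TS-R libraries, and 0.481, 0.734 and 2.65 CPM in WTS-R libraries. Dnah3, another single-headed chain, had 10, 9.23 and 0.413 CPM in NS-R libraries and 0.395 to 1.28 CPM in the other groups. The remaining inner arm chains spanned a wide range in NS-R replicates 1 and 2. Dnah12 had 7.02 and 9.06 CPM there and Dnah7a 1.40 and 2.91 CPM. Dnah7a, Dnah7b and Dnah7c are close copies, so reads may be shared among them. The exception was Dnah14, with 0.540 and 0.627 CPM in NS-R replicates 1 and 2 and its highest value, 2.93 CPM, in TS-R replicate 3.

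Among radial spoke genes, Rsph4a and Rsph9 of the spoke head were higher in both NS-R replicates 1 and 2 than elsewhere, while Rsph1 was also high in TS-R replicate 3, Rsph6a never reached 3 counts, and the stalk genes Rsph3a and Rsph3b were present everywhere. Rsph4a, a spoke head gene of motile cilia, had 4.43, 6.04 and 0 CPM in NS-R libraries and at most 0.0690 CPM elsewhere. Rsph9, also of the head, had 5.43, 9.40 and 1.30 CPM in NS-R libraries and 0.563 to 2.75 CPM in the other groups. Rsph1 had 0.406, 0.414 and 0.281 CPM in NTS-R libraries, 9.27, 21.0 and 0.827 CPM in NS-R libraries, 1.01, 0.812, 11.2 and 0.450 CPM in TS-R libraries, and 0.661, 0.452 and 0.819 CPM in WTS-R libraries. For Rsph1, TS-R replicate 3 lay between both high NS-R libraries. Rsph10b had 6.97, 10.1 and 1.71 CPM in NS-R libraries and 1.13 to 2.01 CPM in the other groups, and its exons overlap Pms2 on the same strand.

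Of the tektins, 4 of 5 were higher in both NS-R replicates 1 and 2 than elsewhere. Tekt1, of cilia and flagella, had 0.174, 0.0690 and 0.0703 CPM in NTS-R libraries, 4.62, 9.40 and 0.295 CPM in NS-R libraries, 0.436, 0.0676, 0.0682 and 0.193 CPM in TS-R libraries, and 0.120, 0.395 and 0.189 CPM in WTS-R libraries. Tekt4 had 3.92, 6.21 and 0 CPM in NS-R libraries and at most 0.281 CPM elsewhere, and its promoter is among the 5 printed above. Tekt2 was measured in all libraries, with 2.38, 2.35 and 1.97 CPM in NTS-R libraries, 3.13, 4.45 and 1.65 CPM in NS-R libraries, 2.95, 1.42, 1.36 and 1.67 CPM in TS-R libraries, and 1.62, 1.24 and 1.51 CPM in WTS-R libraries. Its margin was small, since TS-R replicate 1 came close to NS-R replicate 1. Tekt3 had 0.513 and 0.627 CPM in NS-R replicates 1 and 2 and did not reach 3 counts elsewhere.

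Among the Cfap genes, Cfap65, which is needed for sperm flagella, was close to 0 outside NS-R replicates 1 and 2. It had 0, 0.0690 and 0 CPM in NTS-R libraries, 37.4, 27.9 and 0 CPM in NS-R libraries, 0.0336, 0, 0 and 0 CPM in TS-R libraries, and 0, 0.0565 and 0 CPM in WTS-R libraries. Cfap43 and Cfap44 tether the inner arm to the doublet. Cfap43 had 1.10, 1.24 and 1.97 CPM in NTS-R libraries, 22.3, 29.6 and 1.42 CPM in NS-R libraries, 1.91, 1.83, 1.5 and 1.22 CPM in TS-R libraries, and 1.14, 1.19 and 2.14 CPM in WTS-R libraries. Exons of Cfap43 overlap Itprip on the same strand. Cfap44 had 8.38, 6.90 and 0 CPM in NS-R libraries and at most 0.135 CPM elsewhere.

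Cfap45, Cfap52, Cfap53 and Cfap126 encode proteins bound inside the doublet wall. Cfap45 had 0.464, 0.276 and 0.281 CPM in NTS-R libraries, 6.32, 9.23 and 0.709 CPM in NS-R libraries, 1.01, 0.744, 1.09 and 0.321 CPM in TS-R libraries, and 0.661, 0.226 and 0.504 CPM in WTS-R libraries. Cfap52 had 3.89, 9.29 and 0 CPM in NS-R libraries and at most 0.336 CPM elsewhere. Cfap126 had 7.54, 17.4 and 1.71 CPM in NS-R libraries and 1.97 to 4.79 CPM in the other groups. Central pair genes did likewise, with Cfap46 at 12.2, 10.3 and 1.0 CPM and Cfap54 at 4.84, 6.38 and 2.54 CPM in NS-R libraries, against at most 1.74 and 2.27 CPM in the other groups. Cfap97d2 had 2.73 and 4.33 CPM in NS-R replicates 1 and 2 and 0 counts in the other 11 libraries. Its lower value is at least 12.9-fold above the floor of 3 counts in the shallowest other library.

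A few members were present in every library, well above the detection threshold. Cfap20, at the inner junction of the doublet, had 22.1, 17.9 and 15.1 CPM in NTS-R libraries, 20, 32.6 and 17.7 CPM in NS-R libraries, 22.6, 22, 26 and 18.7 CPM in TS-R libraries, and 18.4, 15.8 and 24.8 CPM in WTS-R libraries. Rsph3b had 25.6, 25.2 and 19.6 CPM in NTS-R libraries, 21.8, 32.2 and 16.7 CPM in NS-R libraries, 22, 23.1, 11.2 and 22.7 CPM in TS-R libraries, and 26.1, 24.6 and 32.9 CPM in WTS-R libraries. The groups overlapped for Cfap20, and for Rsph3b the TS-R libraries lay below the WTS-R libraries. Rsph3a ranged from 10.9 CPM (TS-R replicate 3) to 27.1 CPM (NS-R replicate 2). Rsph3a and Rsph3b are near-identical copies whose reads the authors' counting may have split.

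Cfap36 ranged from 9.21 to 18.8 CPM, Cfap97 from 9.91 to 27.7 CPM, and Cfap298, which helps to assemble dynein arms before they enter the cilium, from 4.08 to 9.93 CPM. Per kilobase of exon in GENCODE M21, the highest medians over 13 libraries were those of Rsph3b (7.43 CPM per kb), Rsph3a (5.62), Cfap20 (4.50), Cfap36 (4.35) and Cfap298 (4.23). On the same scale Rsph1, with a median of 0.592 CPM per kb, was the highest member in NS-R replicate 2, at 15.3 CPM per kb. Exons of 28 members overlap another annotated gene, 26 of them a gene on the opposite strand.

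In CPM, TS-R replicate 3 held the highest value of 5 members, namely Cfap97, Dnah14, Dnah17, Dnah8 and Tekt5, the last at 6 counts. With NS-R replicates 1 and 2 set aside, it held the highest of the remaining 11 libraries for 15 of 62 members, and TS-R replicate 1 for 11. On TMM scaling these counts were 10 and 5, and TS-R replicate 3 held the highest value of 4 members, without Tekt5. Summed lymphoid markers (8 of 8 in the table) were at 7.66 to 33.6 CPM in NTS-R libraries, 12.8 to 19.5 CPM in NS-R libraries, 25.3, 453.5, 2846 and 140.1 CPM in TS-R libraries, and 8.89 to 10.7 CPM in WTS-R libraries. The order of the TS-R libraries in Dnah8, replicates 3, 2, 4 and 1, was that of the lymphoid sum. The part of lymphoid tissue in these values was not tested.

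NS-R replicate 2 exceeded replicate 1 for most members. Over the 49 members that were high in both, the ratio of CPM in replicate 2 to replicate 1 ran from 0.745 (Cfap65) to 2.64 (Cfap61), with a median of 1.46. Over 16261 genes with 10 or more counts in both, the median was 0.977. The ratio was under 1 for 8 members, which were Cfap44, Cfap46, Cfap65, Cfap74, Dnah10, Dnah2, Dnah3 and Dnah7b. It was 1.9 or more for 13, among them the outer arm chain Dnah9, Tekt1 and the inner doublet gene Cfap52. Median ratios over whole marker lists, with genes high in both or not, were 1.74 for multiciliated cell markers, 1.92 for club cell markers and 1.48 for epithelial markers. Over the other lists given below they ran from 0 (spermatid) to 2.61 (alveolar), with adipocyte markers at 1.26.

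Many genes that build motile cilia outside the named families were also highest in NS-R replicates 1 and 2. These lists and the marker lists below were chosen with earlier results of these data known, so nothing is read from their counts. Of 26079 genes with 3 or more counts in any library, 5.59% were higher in both NS-R replicates 1 and 2 than in all 11 others. Foxj1, the master regulator of motile cilia, had 0.174, 0.0690 and 0 CPM in NTS-R libraries, 21.6, 42.0 and 0.177 CPM in NS-R libraries, 0.201, 0.0676, 0.546 and 0.193 CPM in TS-R libraries, and 0, 0.0565 and 0.126 CPM in WTS-R libraries. It was thus high in NS-R replicates 1 and 2 alone. Of 10 regulators of multiciliated cells, 5 were higher in both than elsewhere, while Myb and Rfx3 were highest in TS-R replicate 3 (13.4 and 12.8 CPM). Of 14 genes for dynein assembly and docking, 8 had the pattern, such as Zmynd10 with 5.48, 9.12 and 1.36 CPM in NS-R libraries and at most 1.20 CPM in the other groups. Of 22 genes of the nexin link, the ruler, the central pair and other axoneme parts, 17 had it. The central pair gene Hydin had 4.54, 7.18 and 0.118 CPM in NS-R libraries and at most 0.226 CPM elsewhere.

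Intraflagellar transport, which all cilia need, was present everywhere, and 7 of its 22 genes were higher in both NS-R replicates 1 and 2 than elsewhere. Summed, its genes ran from 241 to 316 CPM in NTS-R libraries and stood at 375, 401 and 248 CPM in NS-R libraries, 441, 328, 406 and 301 CPM in TS-R libraries, and 283 to 331 CPM in WTS-R libraries. The groups overlapped.

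Markers of the cell types that carry motile cilia, or lie next to them, were read in the same libraries. Multiciliated cell markers were higher in both NS-R replicates 1 and 2 than elsewhere for 10 of 12. Ccdc153 had 26.3 and 38.0 CPM there and 0 counts in the other 11 libraries, as did Sntn with 4.43 and 7.86 CPM. The multiciliated sum ran from 141 to 173 CPM in NTS-R libraries and stood at 417, 645 and 161 CPM in NS-R libraries, 166 to 299.9 CPM in TS-R libraries and 149.8 to 224 CPM in WTS-R libraries, most of it from the tubulin Tubb4b and Tppp3, which other cells express. Club cell markers had the pattern for 10 of 12, with sums of 130 to 167 CPM in NTS-R libraries, 8243, 15476 and 138 CPM in NS-R libraries, 80.1 to 205 CPM in TS-R libraries and 171 to 206 CPM in WTS-R libraries. Outside NS-R replicates 1 and 2, most of the club cell sum came from Aldh1a7, Gsto1 and Cbr2, which were detected in all 13 libraries. Epithelial markers had the pattern for 10 of 10, with sums of 4.97 to 14.7 CPM in NTS-R libraries, 207, 329 and 2.83 CPM in NS-R libraries, 8.86 to 15.5 CPM in TS-R libraries and 8.58 to 16.8 CPM in WTS-R libraries. Krt5, a keratin of basal cells, had 14.3 and 20.7 CPM and 0 counts in the other 11 libraries.

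Further marker lists had the pattern for a smaller share of their genes. Alveolar markers had the pattern for 5 of 10, with sums of 2.81 to 5.80 CPM in NTS-R libraries, 63.2, 149 and 6.20 CPM in NS-R libraries, 9.09 to 69.9 CPM in TS-R libraries and 2.82 to 4.47 CPM in WTS-R libraries. The sum of 69.9 CPM, in TS-R replicate 3, was mostly Napsa (58.9 CPM). The alveolar type II gene Sftpc was at 0.865 and 38.2 CPM in NS-R replicates 1 and 2 and at 0.205 CPM in TS-R replicate 3. Chondrocyte markers had it for 3 of 9, with sums of 15.3 to 18.1 CPM in NTS-R libraries, 35.8, 47.6 and 19.4 CPM in NS-R libraries, 11.9 to 18 CPM in TS-R libraries and 13.3 to 16.9 CPM in WTS-R libraries. In NS-R replicates 1 and 2, Chad had 19.7 and 32.0 CPM, the cartilage collagen Col2a1 1.62 and 0.228 CPM (at most 0.205 CPM elsewhere), and Col9a1 12 and 2 counts (at most 2 elsewhere). Acan, the cartilage proteoglycan, had 1.49 and 0.114 CPM there (at most 0.135 CPM elsewhere), and Matn1 was at 0. Mesothelial markers had it for 4 of 8, with sums of 66.6 to 185 CPM in NTS-R libraries, 367, 490.3 and 53.6 CPM in NS-R libraries, 20.7 to 192 CPM in TS-R libraries and 171 to 324 CPM in WTS-R libraries. Thyroid markers had it for 0 of 5. Spermatid markers had it for 0 of 8, and their sum was 4.14 to 4.93 CPM in NTS-R libraries, 3.88 to 4.31 CPM in NS-R libraries, 3.72 to 6.17 CPM in TS-R libraries and 3.61 to 3.66 CPM in WTS-R libraries, with NS-R replicates 1 and 2 (4.27 and 3.88 CPM) within the range of the others. Adipocyte, skeletal muscle and lymphoid markers had it for 0 of 8 each. The part of airway tissue in the levels of the members was not tested.

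**Figure D4:**
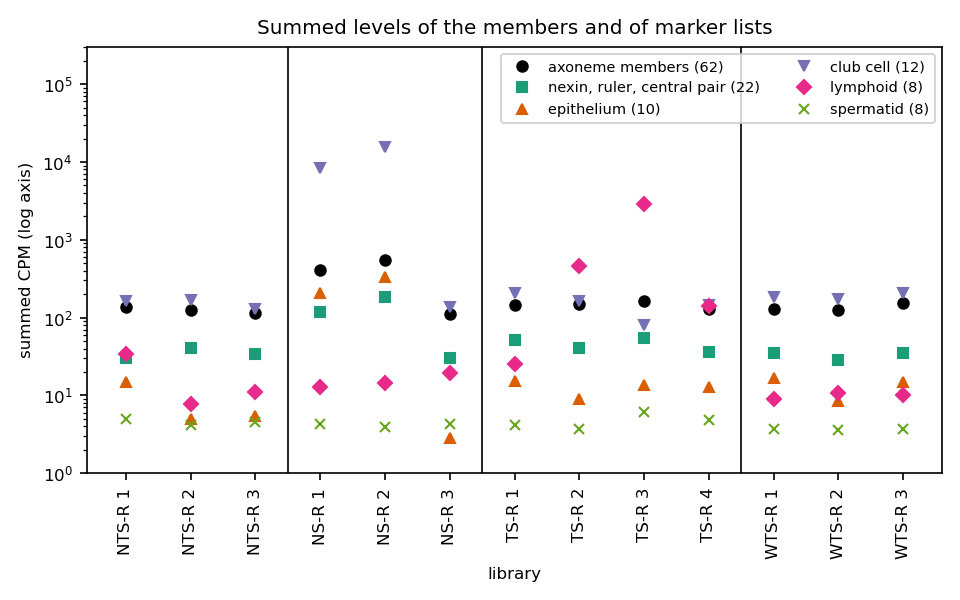
Summed CPM on a log axis, per library, of the 62 members and of 5 marker lists (number of genes in parentheses). The members, the nexin, ruler and central pair genes, the epithelial genes and the club cell genes are highest in NS-R replicates 1 and 2, the lymphoid genes peak in TS-R replicate 3, and the spermatid genes stay between 3.61 and 6.17 CPM.

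Between groups, 0 members passed the test in any of 4 comparisons. Differences were tested with edgeR's quasi-likelihood test over all 13 libraries, adjusted by Benjamini-Hochberg over 17270 genes with a cutoff of 0.05 on the false discovery rate (FDR). The filter on low counts, about 0.59 CPM in 3 libraries, kept 34 of the 62 members and dropped 28. Among those dropped were 24 of the 49 high members, Dnah5, Dnah9 and Cfap65 included, since a gene high in 2 libraries alone does not meet it. By this test 0.0% of all genes were called in each comparison. No gene of the lists above was therefore called either.

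In NS-R against WTS-R, which asks what splenocytes lacking Nlrp3 did relative to WT splenocytes, the 34 members had a median log2 fold change of 2.14, against 0.007 over all genes. By edgeR 0 members were called, and at an unadjusted p under 0.05 there were 22 higher and 0 lower, where all genes gave 4.92% and 0.388%. The members were chosen with their NS-R levels known, so nothing is read from the counts of either NS-R comparison. Dnah10 gave 4.12 (SE 0.75, edgeR FDR 0.204), Cfap45 3.46 (SE 0.74, FDR 0.204) and Cfap43 3.49 (SE 0.75, FDR 0.204). In 8 members all 3 NS-R libraries lay above all 3 WTS-R libraries (7.78% of genes), and in 0 below (4.02%). On TMM scaling these counts were again 8 and 0, with 7.53% of genes above and 7.13% below. The 8 in CPM included Cfap45, Dnah10, Dnah2 and Rsph1.

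In NS-R against WTS-R, the high member levels were those of NS-R replicates 1 and 2. NS-R replicate 3 was also the only female library of its group. Without it, edgeR called 41 of 57 members higher (2.77% of genes), and on the same genes as before 15 of 34 (1.09%). Both fits keep only the NS-R libraries known to be high when the members were picked. The filter then also passes members high in those libraries alone, as among the 57, so nothing is read from these counts. With both NS-R replicates 1 and 2 left out, the median log2 fold change was 0.04. That fit has a lone NS-R library, so no count of calls is given. DESeq2 called 15 members higher (1.1% of genes), edgeR without the filter 13 (0.403%), and edgeR with sex as a covariate 8 (0.585%). The sex term overlaps with the difference of NS-R replicate 3 from NS-R replicates 1 and 2, so nothing is read from its count either.

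In NTS-R against NS-R, donor diabetes on the Nlrp3 KO background, the same NS-R libraries entered with the opposite sign. The median log2 fold change of the members was -1.92, against -0.008 over all genes. By edgeR 0 were called, and at an unadjusted p under 0.05 there were 0 higher and 23 lower, where all genes gave 1.25% and 5.11%. Cfap45 gave -3.87 (SE 0.77, edgeR FDR 0.175), Dnah2 -2.50 (SE 0.51, FDR 0.180) and Cfap43 -3.50 (SE 0.76, FDR 0.208). In 7 members all NTS-R libraries lay below all NS-R libraries (7.76% of genes), and in 0 above (5.29%), and on TMM scaling 8 lay below (7.9%) and 0 above (7.53%). Without NS-R replicate 3, 42 of 57 members were called lower (3.06%), and on the same genes 15 of 34 (1.24%). These fits again keep only the NS-R libraries known to be high, so nothing is read from the counts. With NS-R replicates 1 and 2 left out, the median log2 fold change was -0.02, again from a lone NS-R library. DESeq2 called 15 members lower (1.22%), edgeR without the filter 9 (0.368%) and edgeR with sex as a covariate 9 (0.759%). The sex term overlaps with the split within NS-R here too, so nothing is read from its count.

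In TS-R against WTS-R, which asks what splenocytes of diabetic donors did, the members were spread evenly around 0. The median log2 fold change was -0.004, with 17 positive and 17 negative, against 0.03 over all genes. By edgeR 0 were called, and 3 higher and 3 lower members had an unadjusted p under 0.05, where all genes gave 15.2% and 7.07%. Dnah8 gave 3.52 (SE 0.87, edgeR FDR 0.0624), and its values above show all TS-R libraries over all WTS-R libraries. Rsph3a had 13.7, 20.4, 10.9 and 15.2 CPM in TS-R libraries, against 23.1, 26.9 and 23.0 CPM in WTS-R libraries, and gave -0.97 (SE 0.26, FDR 0.0698). Rsph3b gave -0.75 (SE 0.27, FDR 0.131). All TS-R libraries lay above all WTS-R libraries in 4 members (19.2% of genes) and below them in 3 (2.39%). On TMM scaling the split was 1 above, Dnah8 (8.94%), and 4 below, Cfap54, Dnah7b, Rsph3a and Rsph3b (8.17%).

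The call of Dnah8 in that comparison depended on the libraries. Without TS-R replicate 1 its edgeR FDR was 0.00902 (log2 fold change 3.89), where 9.05% of genes were called higher, without TS-R replicate 4 it was 0.0368 (3.76), where 5.76% were, and without TS-R replicate 3 it was 0.104 (2.51). DESeq2 called 2 members, 1 in each direction (9.08% and 1.97% of genes), edgeR without the filter 1 higher (2.42%), edgeR with the replicate number as a block 1 lower (0.955%), and limma with voomWithQualityWeights 5, 3 higher and 2 lower (13.5% and 8.59%).

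NTS-R was set against TS-R to read the effect of donor Nlrp3 loss under diabetes, and the median log2 fold change was 0.02, against -0.03 over all genes. By edgeR 0 members were called, and 0 higher and 3 lower members had an unadjusted p under 0.05, where all genes gave 5.59% and 14.1%. These were Dnah8 at -2.66 (SE 0.82, edgeR FDR 0.118), Rsph1 at -2.84 (SE 1.20, FDR 0.220) and Dnah14 at -1.20 (SE 0.54, FDR 0.245), all with their highest TS-R value in replicate 3. Without that library Dnah8 gave -1.64 (FDR 0.291) and Rsph1 -0.75 (FDR 0.736). Without TS-R replicate 1 the Dnah8 FDR was 0.0244, where 5.75% of genes were called lower, and DESeq2 and voomWithQualityWeights each called Dnah8 lower as the sole member (7.15% and 7.28% of genes). All NTS-R libraries lay below all TS-R libraries in 4 members (16.9% of genes) and above them in 0 (1.07%). This split turned on TMM scaling, where 0 lay below (6.82%) and 2, Dnah10 and Rsph3b, above (5.72%). This comparison and TS-R against WTS-R share the TS-R libraries, as both NS-R comparisons share those of NS-R.

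**Figure D5:**
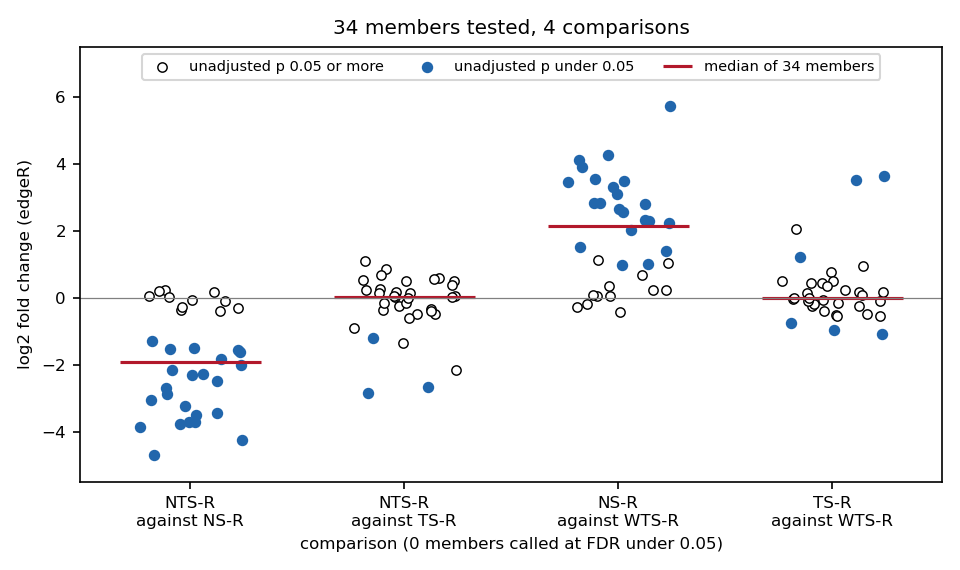
edgeR log2 fold changes of the 34 tested members (points; filled where the unadjusted p is under 0.05) in the 4 comparisons, with the median as a red line. The medians are -1.92 in NTS-R against NS-R, 0.02 for NTS-R against TS-R, 2.14 for NS-R against WTS-R and -0.004 in TS-R against WTS-R, and 0 members were called.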

How the data were processed

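Bulk RNA sequencing of mouse perivascular adipose tissue was analysed from the deposited table of counts per gene, whole numbers that the authors made with HISAT2 and featureCounts, per the submitters' processing notes. Their versions, the genome build, the annotation and the strandedness were not given in the sources used here. Paired-end libraries came from an ABclonal mRNA-seq kit, per the labels' protocols. Groups followed the sample titles. The 62 members and the gene lists were chosen with earlier results of these data known.

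CPM is counts scaled to the library total, with no length correction unless stated. A count of 0 allows up to 3 counts, from 0.0811 CPM (NS-R replicate 1) to 0.211 CPM (NTS-R replicate 3), for counting error only. Tests used edgeR 4.0.16 (R 4.3.3, TMM, filterByExpr, quasi-likelihood), and were tested on simulated data. In the simulation all libraries of a group changed alike, unlike in NS-R, whose libraries did not share a level. The common biological coefficient of variation was 0.389. Alternatives were DESeq2 1.42.0, limma 3.58.1 with voomWithQualityWeights, other size factors and filters, sex or replicate number as terms, and leaving out each library.

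Members named with values were the 4 with most counts per kind, up to 8 with counts everywhere, the 3 with the smallest p per comparison, and those at the detection threshold; other names were chosen after their values were seen. The least different pair of libraries in a group had a chi-square of 36.0 per degree of freedom, so none was a duplicate. Spermatid and parathyroid markers without a row were not analysed here. Promoter windows came from RefSeq (GRCm38.p6), exon lengths and overlaps from GENCODE M21. Python 3.11.15 with pandas 2.3.3, numpy 2.4.6 and matplotlib 3.10.9 made the tables and figures.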

Additional observations from a re-analysis of the deposited data

Results flagged for a closer look

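In the TS-R group of 4 libraries, 27 values were examined for a sample far from the other 3, and 3 stood out, where chance flags about 1 in 20 groups. Rsph1 had 11.2 CPM in TS-R replicate 3, against 0.450 to 1.01 CPM in the other TS-R libraries. Rsph3b had 11.2 CPM in TS-R replicate 3, against 22 to 23.1 CPM in the others; the adipocyte markers were also lowest there, with a sum of 5095 CPM. Cfap298 had 9.93 CPM in TS-R replicate 1, against 4.67 to 5.46 CPM in the others. TS-R replicate 3 had the most lymphoid transcripts of the series and TS-R replicate 1 the most skeletal muscle transcripts, and their part in these values was not tested.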

How the results depend on the processing

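The count of members called was 0 in all 4 comparisons by edgeR. For NS-R against WTS-R the count was 15 by DESeq2, 13 without a filter and 8 with sex as a covariate, ranged from 0 to 41 when each library was left out, and was 15 without NS-R replicate 3 on the same genes. In NTS-R against NS-R it was 15 by DESeq2, 9 without a filter and 9 with sex, ranged from 0 to 42 when each library was left out, and was 15 without NS-R replicate 3 on the same genes. The fits on the same genes, and those without NS-R replicates 1 and 2, were chosen after seeing the data. The latter have a lone NS-R library and assume that it varies like the others, so their calls are not counted. In TS-R against WTS-R the count was 2 by DESeq2, 5 by voomWithQualityWeights, 1 without a filter and 0 to 1 when each library was left out. In NTS-R against TS-R it was 1 by DESeq2, 1 by voomWithQualityWeights and 0 to 1 when each library was left out. With the replicate number as a block the counts were 0 for NS-R against WTS-R, 1 for TS-R against WTS-R (Rsph3a, where 0.955% of all genes were called lower), 0 for NTS-R against TS-R and 0 for NTS-R against NS-R. Libraries with the same number correlated at -0.195 to 0.202. Whether they share more than a number was not tested. Fits without NS-R replicate 3 or without an NTS-R or WTS-R library tested 57 members, and those without NS-R replicate 1 or 2 tested 34; the causes of the differences in calls were not tested. On TMM scaling, chosen after seeing the data, all TS-R libraries lay above all WTS-R libraries in 1 member, and all NTS-R libraries lay below all TS-R libraries in 0 and above them in 2. Among the 3 members with the smallest p per comparison, no log2 fold change reversed sign in any setting. They were picked by p in these same data, so an unchanged sign is no separate check. Leaving out the members found in all 13 libraries keeps those with low counts in some library, so low values are part of that choice. The mean summed level was then 3.784 CPM in NTS-R libraries, 112.3 CPM in NS-R libraries, 5.545 CPM in TS-R libraries and 3.771 CPM in WTS-R libraries. For all 62 members on TMM library sizes it was 134.1 CPM in NTS-R libraries, 356.9 CPM in NS-R libraries, 128.2 CPM in TS-R libraries and 145 CPM in WTS-R libraries, which puts TS-R below both NTS-R and WTS-R. When each library was left out, the CPM sum of the 62 ran from 118.8 to 130.0 CPM in NTS-R, 261.3 to 480.6 CPM in NS-R, 141.3 to 152.4 CPM in TS-R libraries and 127.0 to 141.2 CPM in WTS-R. Members with under 3 counts in a library are limited by depth.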
